A study of Mus musculus with 24 samples.

Results

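Adult mouse sensory neurons were followed over the last 12 h of a short culture, from 24 h to 36 h after plating. The comparison used 6 sequencing libraries, 3 collected at 24 h and 3 at 36 h, out of 24 libraries in 8 groups of 3 in the whole study. These 6 were chosen by the collection time in the sample labels, and every gene of the deposited table entered, 20782 in all. Dorsal root ganglia (DRG), where the cell bodies of sensory neurons sit, were taken from the lumbar region of adult mice and dissociated. The cells were seeded sparsely on dishes coated with laminin at 5 µg/ml and kept in Neurobasal-A with B-27, a serum-free neuronal medium, and cells were later isolated by sorting before RNA was taken. Both times share this treatment and differ in hours after plating alone, as far as the labels say. No treatment, genotype, strain, age in weeks or sex is given for them, nor is the marker used for sorting, and libraries are not tied to separate animals or dishes. P-values therefore measure the spread between these libraries, which may be technical. Cultures collected at 6 h and 12 h, made in the same way, and adult L4-5 ganglia from sham-operated mice serve below as reference levels. For the sham ganglia the labels repeat the text on culture and sorting, and whether either applied is not clear.

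DRG neurons include nociceptors, which sense painful and itch-inducing stimuli, and mechanoreceptors and proprioceptors, which sense touch and body position. Each kind is recognised by its channels and receptors, for example the sodium channels Nav1.8 and Nav1.9 in nociceptors. Satellite glia wrap the cell bodies and Schwann cells wrap the axons, and both, like fibroblasts, make laminins and collagens, the proteins of the basement membrane and of the surrounding matrix. Plated adult neurons have lost their axons and regrow neurites on laminin, which they bind through integrins, while glia and fibroblasts, unlike neurons, can divide.

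Depth was 4.57, 25.7 and 14.4 M reads in the 24 h libraries and 10.3, 7.08 and 12.3 M at 36 h, so the first 24 h library (replicate 1) was shallow. Numbers of replicates follow the order of the samples and pair nothing. On the log2 scale the 24 h libraries correlated with each other at 0.981 to 0.988. At 36 h, replicate 2 stood apart, with correlations of 0.958 and 0.961 against 0.982 between the other two. No pair of libraries agreed within sampling noise. Values below are normalized read counts, given per library in replicate order or as mean ± SD of 3 libraries. Differences are log2(36 h) minus log2(24 h) ± SE on values plus 1, a scale on which genes with few reads appear to change less than they did. A gene is said to rise or fall where it passed limma, a linear model fitted across all genes with a shared estimate of spread from the 12 culture libraries, at a Benjamini-Hochberg adjusted p of 0.05.

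From 24 h to 36 h, some genes of nociceptors and of sodium channels fell, and some genes of DNA replication, basement membrane and matrix rose. Of 15006 genes tested, 166 rose (1.11%) and 232 fell (1.55%), together 398 (2.65%). These shares are the background for the counts of each list below. Among them, 44 rose and 83 fell by at least 2-fold, and the median size of a called difference was 0.832 on the log2 scale, with a range of 0.401 to 3.02. Over all tested genes the median difference was -0.0149. For all 398 genes the 24 h and 36 h libraries did not overlap, which was also true of 29.5% of all tested genes, 14% higher and 15.5% lower at 36 h. The count depended on single libraries. Leaving out replicate 1, 2 or 3 at 24 h gave 209, 131 or 67 genes, and leaving out replicate 1, 2 or 3 at 36 h gave 268, 175 or 229. Without replicate 1 at 12 h, which enters the shared estimate of spread and stood apart from its group, 1040 genes were called, a setting chosen after seeing the data. Count tests on recovered reads called 561 genes with edgeR, 284 of them higher, and 1079 with DESeq2.

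**Figure D1:**
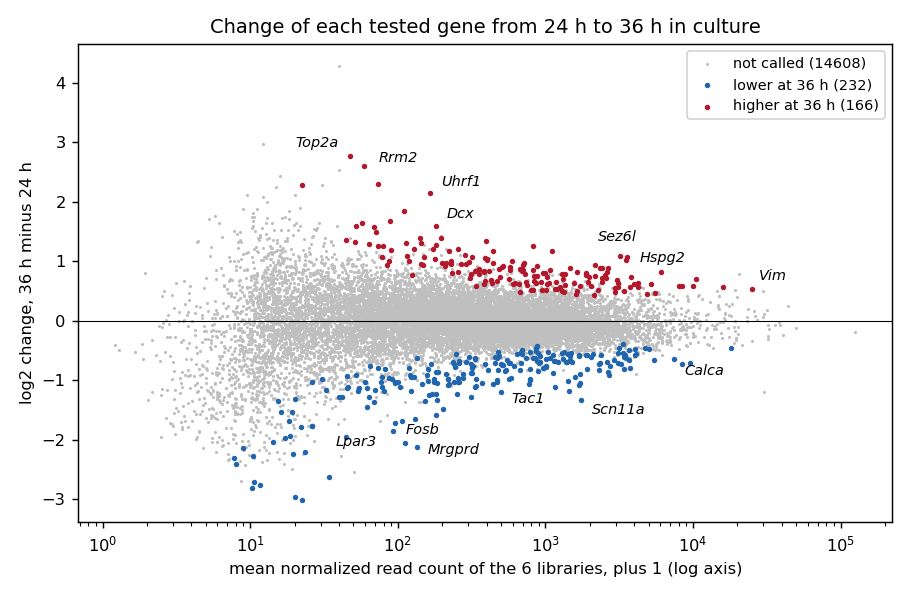
Each point is 1 of the 15006 tested genes, with its mean normalized read count over the 6 libraries plus 1 on a log axis and its log2 difference, 36 h minus 24 h, on the vertical axis. The 166 red genes were higher and the 232 blue genes lower at 36 h, with the replication genes Top2a, Rrm2 and Uhrf1 near the top and the nociceptor genes Mrgprd and Lpar3 near the bottom.

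Part of the nociceptor list fell. Of 36 tested genes of nociceptors and itch neurons, 9 fell (25%) and 0 rose, with a median difference of -0.597 against -0.0149 over all genes. The 9 were the sodium channels Scn10a and Scn11a, the irritant receptor channel Trpa1, the receptors Mrgprd and Lpar3, the peptide genes Tac1 and Calca, the semaphorin receptor Plxnc1 and the complement regulator Cd55. Leaving out replicate 1, 2 or 3 at 24 h gave 6, 5 or 5 falls in the list, and leaving out replicate 1, 2 or 3 at 36 h gave 8, 6 or 9, not always of the same genes: Cd55 was not called without replicate 3 at 36 h. At an unadjusted p below 0.05, 23 members were lower and 1 was higher.

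Mrgprd, an itch and pain receptor of nonpeptidergic nociceptors, had 239, 202 and 209 at 24 h and 52.8, 62.0 and 35.1 at 36 h. All 36 h libraries lay far below the 24 h libraries, and the difference was -2.13 ± 0.19 (limma adjusted p = 6.14e-05). The level had been 3765 ± 604 at 6 h and 1869 ± 266 at 12 h, and 4353 ± 30.4 in sham ganglia, so little of it was left by 36 h. Lpar3, a receptor for lysophosphatidic acid, had 169.7, 126 and 132 at 24 h and 61.4, 24.8 and 36.0 at 36 h, a difference of -1.86 ± 0.25 (limma adjusted p = 0.00127). Its highest 36 h value was below its lowest 24 h value, as in every gene called as falling, and the lowest rested on 16 reads. Trpa1 had 305, 229 and 282 at 24 h and 111, 63.6 and 98.8 at 36 h, a difference of -1.60 ± 0.24 (limma adjusted p = 0.00309). All 3 genes kept their call in each of the 6 fits without 1 library.

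The 2 sodium channel genes most typical of nociceptors were among the best measured. Scn11a, which encodes Nav1.9, had 2474, 2519.7 and 2459 at 24 h and 1011, 952 and 997 at 36 h. Within each time its libraries were nearly equal, and the difference of -1.33 ± 0.11 (limma adjusted p = 6.14e-05) held in all 6 fits without 1 library. Scn10a, which encodes Nav1.8, had 6429, 7001 and 6604 at 24 h and 3914, 4309 and 4387 at 36 h, a difference of -0.67 ± 0.12 (limma adjusted p = 0.00961). Its 36 h libraries were all below its 24 h libraries, as in every gene called as falling. Without replicate 2 or 3 at 24 h it missed the threshold, with an adjusted p of up to 0.0546.

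The peptide genes Tac1 and Calca fell too. Tac1, the precursor of substance P, had 689, 546 and 846 at 24 h and 261, 274 and 361 at 36 h, a difference of -1.20 ± 0.20 (limma adjusted p = 0.00587) that held in all 6 fits without 1 library. Calca, which encodes calcitonin gene-related peptide, had 8768, 7907 and 10565 at 24 h and 6001, 4793 and 6592 at 36 h, a difference of -0.65 ± 0.15 (limma adjusted p = 0.0316). It kept its call only without replicate 3 at 36 h, and its adjusted p without each of the other 5 libraries reached up to 0.188. Among 24 tested neuropeptide genes, these were the only 2 called, and the median difference was -0.102. Plxnc1 and Cd55 differed by -0.60 ± 0.12 and -0.79 ± 0.18 (limma adjusted p = 0.0178 and 0.0288). Plxnc1 lost its call without any 1 library at 24 h or without replicate 2 at 36 h, with an adjusted p of up to 0.112. Cd55 kept its call only without replicate 1 at 36 h, and its adjusted p reached up to 0.149.

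**Figure D2:**
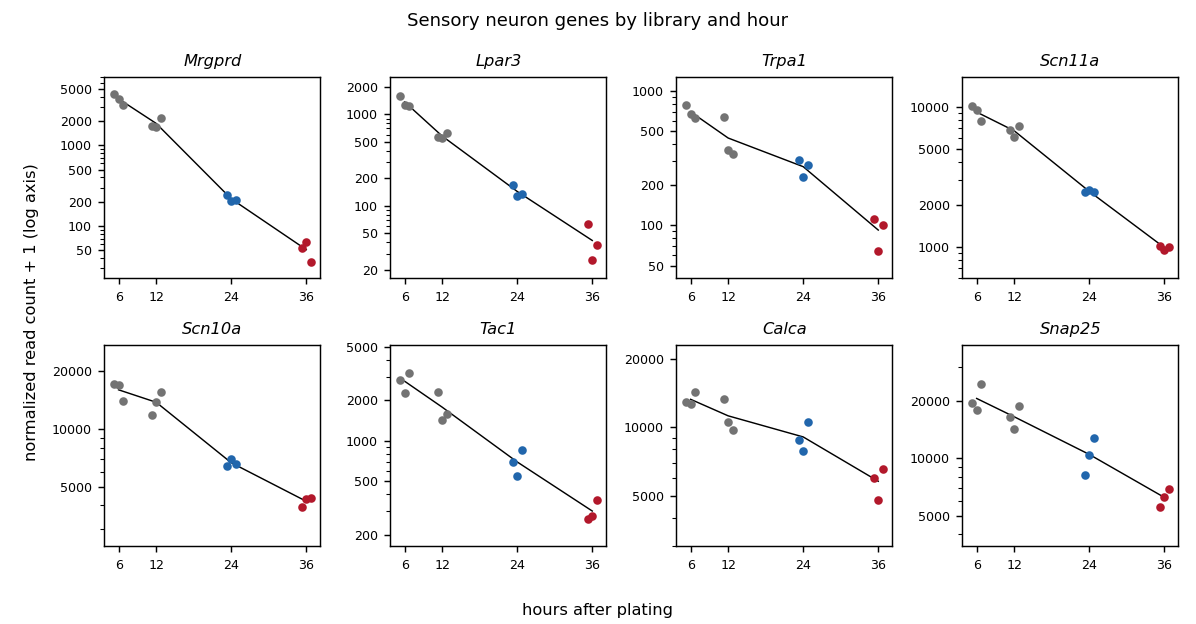
Normalized read counts plus 1 of 8 sensory neuron genes on a log axis against hours after plating, with 1 point per library, the line through group means, 24 h in blue and 36 h in red. In each panel the 36 h libraries lie below the 24 h libraries, from Mrgprd with 35.1 to 62.0 against 202 to 239 to Snap25 with 5530.2 to 6917 against 8202 to 12829. Such separation was shared by every gene called as falling.

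The libraries are labelled DRG neurons, and neuron markers were plentiful, although markers of glia and fibroblasts were present as well. The sum of general neuron markers did not separate the times, although single markers lay apart in both directions. The summed level of 15 such markers ranged from 145840 to 177759 at 24 h and from 140299 to 177349 at 36 h, 1 of 15 was called (Snap25, lower), and their median difference was -0.0617. Of the 15, 2 were higher and 3 lower at 36 h without overlap, against 14% and 15.5% of all tested genes. Uchl1, an abundant neuronal enzyme, had 6393 ± 265 at 24 h and 6516 ± 1029 at 36 h. In bulk libraries, fewer cells of a type and less RNA per cell cannot be told apart.

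Several genes with the largest falls were outside the fixed lists. Ctxn3, which encodes a small membrane protein of the cortexin family, had 187, 163 and 183 at 24 h and 67.9, 24.8 and 43.4 at 36 h, a difference of -2.05 ± 0.26 (limma adjusted p = 0.00116). Tmem233, a small membrane protein gene, had 219, 191 and 182 at 24 h and 80.9, 41.9 and 69.2 at 36 h, a difference of -1.66 ± 0.21 (limma adjusted p = 9.41e-04). Ppp1r1c, an inhibitor of protein phosphatase 1, had 448, 404 and 473 at 24 h and 218, 167 and 162 at 36 h, a difference of -1.28 ± 0.14 (limma adjusted p = 3.13e-04). In all 3 genes each 36 h library was below each 24 h library, a condition of the rule by which they were named. Levels in sham ganglia and at 6 h had been many times higher, for example 4413 ± 310.5 and 3559 ± 389 for Ppp1r1c. The call held in all 6 fits without 1 library for each of them. Serpina3g, a protease inhibitor with close relatives in the same gene cluster whose reads may be shared, differed by -1.33 ± 0.14, and Abcd2, Tmem236 and Wipf3 by -1.26 ± 0.21, -1.24 ± 0.19 and -1.24 ± 0.18 (limma adjusted p = 3.13e-04, 0.00553, 0.00356 and 0.00294). These calls held in the same 6 fits, although Tmem236 lost its call when all 24 libraries shared the estimate of spread (adjusted p = 0.0947). Lhfpl3 differed by -1.48 ± 0.26 (limma adjusted p = 0.00828) and lost its call without replicate 3 at 24 h (adjusted p = 0.0597). Ttll7, a tubulin-modifying enzyme of neurons, went from 11932 ± 2399 to 7179 ± 229, a difference of -0.71 ± 0.14 (limma adjusted p = 0.0164), lost without replicate 3 at 24 h or replicate 1 or 2 at 36 h (up to 0.10).

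Sodium and potassium channel genes called with limma fell, with 1 exception. Of 14 sodium channel subunits, 4 fell and 0 rose (28.6% called, against 2.65% of all tested genes), with a median difference of -0.481. Besides Scn10a and Scn11a these were Scn1a, the Nav1.1 channel of large sensory neurons, and the auxiliary subunit Scn2b. Scn1a had 708, 1208 and 1223 at 24 h and 416, 490.0 and 558 at 36 h, a difference of -1.07 ± 0.21 (limma adjusted p = 0.0158). It was the 1 member called of 30 mechanoreceptor and proprioceptor genes, whose median was -0.318, and it lost its call without replicate 2 or 3 at 24 h or replicate 1 or 2 at 36 h, with an adjusted p of up to 0.106. Without replicate 1 at 24 h, the shallow library, 5 members of that list fell. Scn2b had 263, 297 and 343 at 24 h and 156, 110.1 and 168 at 36 h, a difference of -1.06 ± 0.19 (limma adjusted p = 0.00938), lost only without replicate 3 at 24 h (adjusted p = 0.0682). Without replicate 1, 2 or 3 at 24 h the sodium channel list had 5, 2 or 1 falls, and without replicate 1, 2 or 3 at 36 h 3, 3 or 4.

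Of 57 potassium channel subunits, 7 fell and 1 rose (14% called, against 2.65% of all tested genes), with a median difference of -0.231. With edgeR 8 fell and 1 rose, and with DESeq2 9 fell and 2 rose. The fallen members were the pore-forming genes Kcnb2, Kcnc2, Kcnh7 and Kcns3, the calcium-binding partners Kcnip1 and Kcnip4 and the auxiliary subunit Kcnmb1. Kcnip1 had 93.5, 83.9 and 85.1 at 24 h and 55.0, 29.5 and 18.5 at 36 h, a difference of -1.46 ± 0.28 (limma adjusted p = 0.0125), lost without replicate 3 at 24 h (adjusted p = 0.0625). Kcnh7 had 184, 234 and 219 at 24 h and 100.3, 107 and 103 at 36 h, a difference of -1.02 ± 0.17 (limma adjusted p = 0.00651) that held in all 6 fits without 1 library. Kcnb2 differed by -0.98 ± 0.21 (limma adjusted p = 0.0229) and missed the threshold without replicate 2 or 3 at 24 h or replicate 2 at 36 h, with an adjusted p of up to 0.145. The member that rose was Kcnn4, a calcium-activated channel, with 226, 232 and 156 at 24 h and 358, 422 and 508 at 36 h, a difference of 1.07 ± 0.20 (limma adjusted p = 0.0123), lost without replicate 3 at either time (adjusted p up to 0.0845). Falls in this list numbered 6, 4 or 2 without replicate 1, 2 or 3 at 24 h and 7, 4 or 4 without replicate 1, 2 or 3 at 36 h.

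In 2 lists of synaptic genes, the members that passed the test fell. Of 30 glutamate and GABA receptor subunits, 4 fell and 0 rose, among them Gabrb2 and Gabra2, subunits of the GABA-A receptor, the chloride channel opened by GABA. Gabrb2 had 128, 223 and 308 at 24 h and 70.1, 63.6 and 115 at 36 h, a difference of -1.35 ± 0.28 (limma adjusted p = 0.0192). Gabra2 differed by -0.91 ± 0.23 (limma adjusted p = 0.0464). Without replicate 1, 2 or 3 at 24 h 3, 0 or 0 members of the list were called, and without replicate 1, 2 or 3 at 36 h 1, 1 or 4. With edgeR 5 fell and 0 rose, and with DESeq2 6 fell and 1 rose.

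Of 55 presynaptic genes, 4 fell and 0 rose (7.27% called, against 2.65% of all tested genes), with a median difference of -0.183. Snap25, a membrane fusion protein of synaptic vesicles, had 8202, 10409.7 and 12829 at 24 h and 5530.2, 6277 and 6917 at 36 h, a difference of -0.73 ± 0.17 (limma adjusted p = 0.0304). Syn2, a synaptic vesicle protein, Rab3c, a vesicle GTPase, and Pclo, a scaffold of the active zone, differed by -0.63 ± 0.14, -0.62 ± 0.14 and -0.52 ± 0.12 (limma adjusted p = 0.0232, 0.0307 and 0.0307). Without replicate 1 at 24 h 3 members of the list fell, without replicate 3 at 36 h 1 fell, and without each of the other 4 libraries 0 did. With edgeR 5 fell and with DESeq2 8.

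Calcium channel subunits, the family the study's title concerns, gave 0 calls among 18 tested genes with limma, with 1 higher and 2 lower at an unadjusted p below 0.05. EdgeR called 1 lower, and DESeq2 called 1 higher and 2 lower. The median difference was 0.0497. Cacna2d1, an alpha2delta subunit that brings the channel to the membrane and binds gabapentin, had 3753, 3092 and 3939 at 24 h and 6017, 4557 and 5392 at 36 h, a difference of 0.56 ± 0.18 that missed the threshold (limma adjusted p = 0.114) although the libraries did not overlap. Its call depended on the setting. It passed in 4 of 20 alternatives: DESeq2, library weights, only the 6 libraries, and without replicate 1 at 12 h. None of the 6 fits without 1 library called it (limma adjusted p up to 0.293). Cacna2d2 had 59.0, 71.6 and 73.7 at 24 h and 56.1, 51.2 and 84.0 at 36 h. These overlapped, with a difference of -0.12 ± 0.23 (limma adjusted p = 0.814) on as few as 24 reads. Cacna2d3 overlapped as well, with 81.4 ± 18.3 and 83.3 ± 16.9, and Cacna2d4 lay below the filter, with 0 to 4.312 in the 6 libraries.

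Axon and transcription factor genes gave few calls. Nrn1, a membrane-anchored neurite growth factor, was the only 1 of 25 neurofilament and mature axon genes called. It had 1355, 1704 and 1737 at 24 h and 756, 744 and 701 at 36 h, a difference of -1.11 ± 0.12 (limma adjusted p = 3.13e-04) that held in all 6 fits without 1 library. Fgf13, an intracellular partner of sodium channels listed here with neurotrophic genes, had 1970.0, 1857 and 2479 at 24 h and 1128, 1107 and 1013 at 36 h. It fell by 0.95 on the log2 scale (SE 0.16, limma adjusted p = 0.00549), also in all 6 fits. Of 37 transcription factors of sensory neuron identity, only Hoxd1 fell, from 34.4 ± 9.68 to 16.3 ± 4.96 (limma adjusted p = 0.0464, up to 0.255 in the 5 fits without 1 library that lost it, all but the fit without replicate 2 at 36 h). The immediate early genes Fosb and Egr1, transcription factors induced by activity and injury, were 2 falls among 35 listed. Fosb had 145, 176 and 117 at 24 h and 41.0, 57.4 and 33.2 at 36 h, a difference of -1.73 ± 0.23 (limma adjusted p = 0.0013) in all 6 fits, after 2083 ± 128 at 6 h. It was still above the 15.0 ± 5.47 of sham ganglia. Egr1 differed by -0.90 ± 0.17 (limma adjusted p = 0.0109), lost without replicate 2 or 3 at 24 h (adjusted p up to 0.0701).

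Genes of DNA replication and cell division rose. Of 64 tested members of the list, 10 rose (15.6%) and 0 fell, with a median difference of 0.565, the highest of the 35 gene lists. In 35 members the 36 h libraries were all above the 24 h libraries, against 14% of all tested genes, and 29 had an unadjusted p below 0.05 in this direction and 0 in the other. Top2a, the DNA topoisomerase of dividing cells, had 4.92, 11.4 and 19.4 at 24 h and 60.4, 63.6 and 117 at 36 h. Rrm2, the regulated subunit of ribonucleotide reductase, which makes DNA precursors, had 14.8, 12.3 and 19.4 at 24 h and 71.1, 97.7 and 135 at 36 h. In both genes every 36 h library stood several times above every 24 h library, although the lowest 24 h values rested on 2 and 6 reads. The differences were 2.76 ± 0.50 for Top2a and 2.61 ± 0.34 for Rrm2 (limma adjusted p = 0.00938 and 0.00127), and both held in all 6 fits without 1 library.

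The promoters of Rrm2, Top2a and Mcm3, called members that rose together, are shown because the CCAAT box is a common element of promoters of cell division genes and the E2F site one of replication genes. Each runs from 250 bases before to 50 bases after the start of the gene in the RefSeq annotation of GRCm38.p6, 5′ to 3′ on the strand of the gene. Capitals mark CCAAT or its reverse complement ATTGG, and the E2F letters TTTCCCGC or TTTGGCGC on either strand. The windows are chr12:24708004-24708303 on the plus strand for Rrm2, chr11:99024140-99024439 on the minus strand for Top2a and chr1:20820263-20820562 on the minus strand for Mcm3.
Rrm2: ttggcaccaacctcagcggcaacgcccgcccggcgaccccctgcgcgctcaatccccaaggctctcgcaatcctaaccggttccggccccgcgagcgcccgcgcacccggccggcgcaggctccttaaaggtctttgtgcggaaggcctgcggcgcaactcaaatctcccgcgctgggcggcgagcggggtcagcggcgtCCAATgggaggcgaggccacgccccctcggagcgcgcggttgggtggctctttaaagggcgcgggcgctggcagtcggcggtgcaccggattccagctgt
Top2a: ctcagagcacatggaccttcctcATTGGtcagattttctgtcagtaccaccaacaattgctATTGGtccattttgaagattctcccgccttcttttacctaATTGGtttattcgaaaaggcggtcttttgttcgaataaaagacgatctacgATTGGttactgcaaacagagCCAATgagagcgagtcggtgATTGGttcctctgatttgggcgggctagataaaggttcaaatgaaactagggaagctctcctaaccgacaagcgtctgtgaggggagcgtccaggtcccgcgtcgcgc
Mcm3: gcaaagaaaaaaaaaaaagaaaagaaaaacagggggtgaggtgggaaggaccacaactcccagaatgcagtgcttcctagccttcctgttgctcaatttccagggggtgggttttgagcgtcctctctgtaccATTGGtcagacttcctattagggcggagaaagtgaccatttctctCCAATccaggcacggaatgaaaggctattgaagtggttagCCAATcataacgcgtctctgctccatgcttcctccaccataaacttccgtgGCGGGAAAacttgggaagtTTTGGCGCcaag
The Rrm2 window holds 1 CCAAT box, that of Top2a 6 and that of Mcm3 3, and 2 E2F matches occur in Mcm3. Of the 10 called members 8 had a RefSeq promoter in the table, and all 8 held CCAAT on either strand, as did 35 of 51 promoters of tested list members (68.6%) and 4707 of 11090 of all tested genes (42.4%). The E2F letters were in 2 of 8 (25%), 10 of 51 (19.6%) and 352 of 11090 (3.17%). A match of letters describes the sequence and shows no binding.

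Replication factors rose with them. Uhrf1, which carries DNA methylation through replication, had 46.7, 47.5 and 89.1 at 24 h and 264, 197 and 341 at 36 h, a difference of 2.14 ± 0.31 (limma adjusted p = 0.00291). Mcm3, a subunit of the replicative helicase, had 71.3, 80.9 and 78.6 at 24 h and 166, 167 and 200.3 at 36 h, a difference of 1.20 ± 0.21 (limma adjusted p = 0.00755). Dtl, a ubiquitin ligase adaptor active in S phase that is not in the list, had 24.6, 17.6 and 29.2 at 24 h and 93.8, 152 and 115 at 36 h, a difference of 2.29 ± 0.34 (limma adjusted p = 0.00294). None of these 3 overlapped between times, which was true of every called gene, and each call held in all 6 fits without 1 library. The related helicase subunit Mcm2 differed by 1.06 ± 0.24 and the DNA polymerase gene Pole by 1.32 ± 0.29 (limma adjusted p = 0.0257 and 0.0264). The histone chaperone subunit Chaf1a, named for its large rise, went from 65.3 ± 9.95 to 161 ± 13.5 and the DNA repair gene Fignl1 from 41.1 ± 16.5 to 133 ± 47.2 (limma adjusted p = 0.0332 and 0.0343). Pole and Chaf1a lost their calls in every fit without 1 library (adjusted p up to 0.126 and 0.118), Mcm2 and Fignl1 in every one except that without replicate 2 at 36 h (up to 0.103 and 0.15).

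Genes of the division phase and of cycle entry were included. Mki67, the marker of proliferating cells, had 93.5, 83.5 and 137 at 24 h and 212, 208 and 295 at 36 h, a difference of 1.19 ± 0.20 (limma adjusted p = 0.00615) in all 6 fits. It had been at 201 ± 9.55 at 6 h, so 36 h brought it back to about its first level. Prc1, a protein of the dividing spindle, differed by 0.92 ± 0.22 and the kinase Cdk2 by 0.77 ± 0.19 (limma adjusted p = 0.0337 and 0.0398), and both missed the threshold in each of the 6 fits (up to 0.146 and 0.197). Ccnd1, the cyclin D1 of cycle entry, which had the highest read count of the 10 (not corrected for gene length), was at 6999.7, 6306 and 6033 at 24 h and 9691, 10285 and 8885 at 36 h, a difference of 0.58 ± 0.12 (limma adjusted p = 0.0178). It lost its call without replicate 2 or 3 at 24 h or replicate 1 or 2 at 36 h (up to 0.118). Across the list, leaving out replicate 1, 2 or 3 at 24 h gave 6, 5 or 6 rises, and leaving out replicate 1, 2 or 3 at 36 h gave 5, 6 or 6. Which cells carried these RNAs was not tested.

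**Figure D3:**
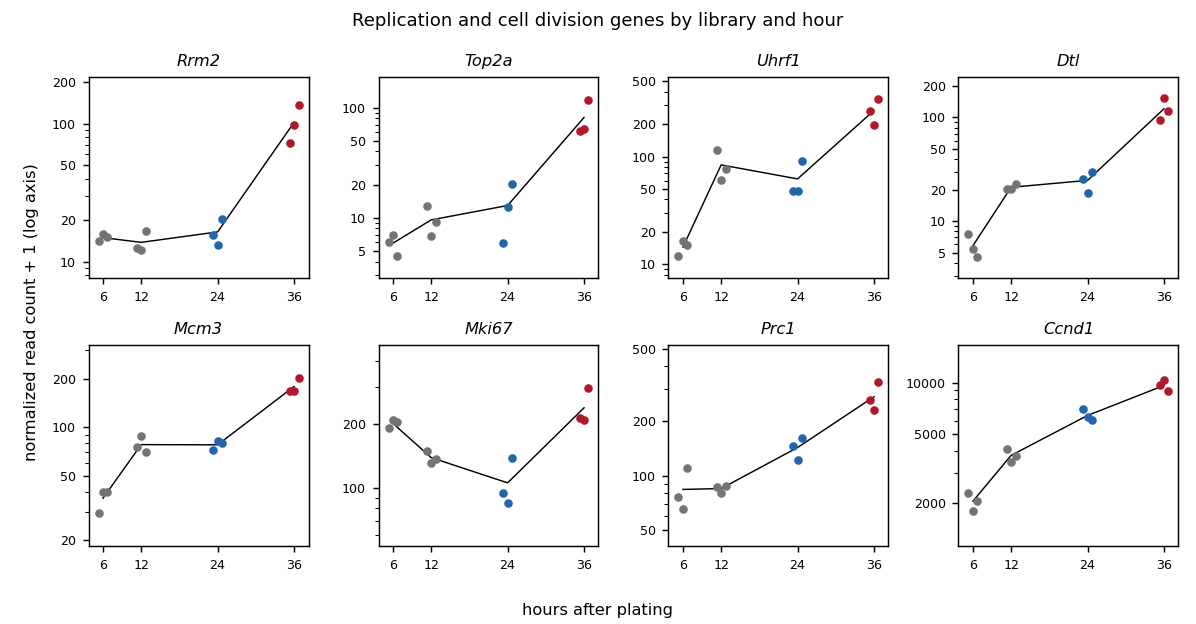
Normalized read counts plus 1 of 8 replication and cell division genes on a log axis against hours after plating, with 1 point per library, the line through group means, 24 h in blue and 36 h in red. Rrm2 and Top2a are at 4.92 to 19.4 in the 24 h libraries and at 60.4 to 135 in the 36 h libraries, while Ccnd1 is higher at each later time.

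Other large rises were outside the fixed lists. Metrn, which encodes meteorin, a secreted protein of glia and progenitors that acts on axon growth, had 295, 225 and 164 at 24 h and 441, 657 and 600.0 at 36 h, a difference of 1.33 ± 0.27 (limma adjusted p = 0.0178). It lost its call without replicate 2 or 3 at either time (adjusted p up to 0.123). Fam26e had 101, 99.3 and 117 at 24 h and 278, 236 and 257 at 36 h, a difference of 1.27 ± 0.19 (limma adjusted p = 0.00294) in all 6 fits. Trf, the iron carrier transferrin, went from 82.0 ± 15.0 to 205 ± 40.3, a difference of 1.31 ± 0.27 (limma adjusted p = 0.0192) that was lost without replicate 1 or 3 at 24 h or replicate 2 or 3 at 36 h (up to 0.119). Mylk4, Muc2, Shisa3 and Rarres2 rose by 1.84 ± 0.46, 1.48 ± 0.35, 1.39 ± 0.33 and 1.26 ± 0.32 (limma adjusted p = 0.0432, 0.0332, 0.0368 and 0.0489), and 0 of the 6 fits without 1 library called any of them (up to 0.153, 0.142, 0.135 and 0.248). Olfml2a, which rose by 1.39 ± 0.33 (limma adjusted p = 0.037), was kept only without replicate 2 at 24 h (up to 0.188). That none of these 8 genes overlapped between 24 h and 36 h was a condition of the rule by which they were named.

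Basement membrane genes rose. Of 38 integrin and laminin genes, listed with their matrix partners, 10 rose (26.3%) and 0 fell, with a median difference of 0.56. Of the 38, 23 had all 36 h libraries above all 24 h libraries, against 14% of all tested genes. They were the laminin chains Lama2, Lama4, Lamb1 and Lamc1, the laminin linkers Nid1 and Nid2, the heparan sulfate proteoglycans Agrn and Hspg2, and the laminin-binding integrin subunits Itga6 and Itga7. Lamb1 had 1389.6, 1478 and 1312 at 24 h and 2276, 2405 and 2409 at 36 h, a difference of 0.76 ± 0.12 (limma adjusted p = 0.00421). Lamc1, its partner in most laminins, had 2959, 2948 and 2649.5 at 24 h and 4584, 5128 and 4550.0 at 36 h, a difference of 0.74 ± 0.11 (limma adjusted p = 0.00294). Both were clearly separated between times and held in all 6 fits without 1 library. The remaining members not described below were Lama4, Nid1, Nid2 and Itga6, which rose by 0.71 ± 0.13, 0.56 ± 0.12, 0.72 ± 0.18 and 0.57 ± 0.12 (limma adjusted p = 0.00985, 0.0195, 0.0475 and 0.0168). Lama4 was called in 5 of these 6 fits, Nid1 and Itga6 in 2 each and Nid2 in 0 (up to 0.0733, 0.116, 0.0845 and 0.231).

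The largest rise of this list was that of Hspg2, the gene of perlecan. It had 2482, 2672 and 1757 at 24 h and 4256, 5269 and 4835 at 36 h, a difference of 1.07 ± 0.23 (limma adjusted p = 0.0246), lost without replicate 1 or 3 at 24 h or replicate 2 or 3 at 36 h (up to 0.155). Lama2, the laminin chain of muscle and Schwann cells, differed by 0.83 ± 0.19 (limma adjusted p = 0.0307), and kept its call only without replicate 3 at 36 h (up to 0.167 otherwise). Agrn, which clusters acetylcholine receptors at the neuromuscular junction, differed by 0.75 ± 0.14 (limma adjusted p = 0.01), lost without replicate 3 at 24 h or replicate 2 at 36 h (up to 0.0749). Itga7, which had the highest read count of the 10 without correction for length, had 8375, 8409 and 7062 at 24 h and 11887, 13678 and 13035 at 36 h, a difference of 0.70 ± 0.17 (limma adjusted p = 0.0371) that no fit without 1 library called (up to 0.196). The laminin receptor Dag1, outside the list, behaved likewise, with 6764 ± 432 and 10073 ± 273 and a difference of 0.58 ± 0.13 (limma adjusted p = 0.0257, up to 0.15 in those fits, all of which lost it). Across the list 5, 5 or 2 members rose without replicate 1, 2 or 3 at 24 h and 5, 4 or 7 without replicate 1, 2 or 3 at 36 h.

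Collagens and matrix proteins followed, with 10 rises and 1 fall among 47 tested and a median difference of 0.481. That was 23.4% called, against 2.65% of all tested genes. Col1a2, a chain of the fibrillar type I collagen, had 694, 644 and 704 at 24 h and 1488, 1521 and 1594 at 36 h, a difference of 1.17 ± 0.13 (limma adjusted p = 3.13e-04). Col28a1, a collagen of peripheral nerve, had 615, 605 and 607 at 24 h and 1199, 1141 and 1129.9 at 36 h, a difference of 0.92 ± 0.11 (limma adjusted p = 8.06e-04). Within each time both genes were nearly constant, and both held in all 6 fits without 1 library, as did Col5a1, Col5a3 and Tnc, with differences of 0.92 ± 0.14, 0.79 ± 0.13 and 0.71 ± 0.11 (limma adjusted p = 0.00421, 0.00568 and 0.0049). Tnc encodes tenascin C, a matrix glycoprotein of growing and injured tissue, and it lost its call when all 24 libraries shared the estimate of spread (adjusted p = 0.415). Col1a1, the other chain of type I collagen, had 46.7, 58.0 and 49.4 at 24 h and 116, 76.0 and 185 at 36 h, a difference of 1.19 ± 0.30 (limma adjusted p = 0.0463) that only the fit without replicate 2 at 36 h kept (up to 0.188 in the others). Col14a1 rose by 1.57 ± 0.37 from 34.2 ± 7.70 to 102 ± 12.8 (limma adjusted p = 0.0337), and Col4a1, Col16a1 and Postn by 0.64 ± 0.15, 0.84 ± 0.20 and 0.76 ± 0.17 (limma adjusted p = 0.0312, 0.0371 and 0.0246). Col14a1, Col16a1 and Postn lost their calls in all 6 fits without 1 library (up to 0.172, 0.205 and 0.0952), and Col4a1 in 5 of them, all but that without replicate 2 at 24 h (up to 0.189). The fall was that of Col25a1, a transmembrane collagen of neurons, from 138, 168 and 158 at 24 h to 41.0, 23.3 and 107 at 36 h, a difference of -1.69 ± 0.39 (limma adjusted p = 0.0307) that only the fit without replicate 3 at 36 h kept (up to 0.133). Rises in this list numbered 5 or 6 in each of the 6 fits, against 10 with all libraries.

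Of 41 matrix proteases and inhibitors 3 rose and 0 fell. The membrane-anchored protease Mmp17 differed by 0.94 ± 0.22, the protease Adam8 by 0.62 ± 0.15 and the inhibitor Serpine2 by 0.61 ± 0.12 (limma adjusted p = 0.0334, 0.0356 and 0.0178). Mmp17 was kept only without replicate 1 at 36 h and Serpine2 only without replicate 3 at 36 h, and Adam8 in no fit without 1 library, with adjusted p of up to 0.15, 0.123 and 0.153.

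A few markers of fibroblasts and pericytes were higher at 36 h together with these genes. The summed level of 14 fibroblast markers ranged from 33124 to 34386 at 24 h and from 41264 to 46491 at 36 h, and 3 of 13 tested rose, Vim and the collagens Col1a1 and Col1a2, which the collagen list also holds. Vim, the intermediate filament protein vimentin and most of that sum, had 22303, 20325 and 18849.6 at 24 h and 28068, 29626 and 30843 at 36 h, a difference of 0.53 ± 0.11 (limma adjusted p = 0.0164), lost without replicate 2 or 3 at either time (up to 0.108). Of the 13 fibroblast markers tested, 4 were higher and 0 lower at 36 h without overlap, against 14% and 15.5% of all tested genes. Dcn and Pdgfra, 2 more specific fibroblast markers, were not called: Dcn was at 1115 ± 172 and 1298 ± 125, Pdgfra at 349.8 ± 43.1 and 290.1 ± 19.0. Pericyte markers summed to 2597 to 2836 at 24 h and 3180 to 3654 at 36 h, and Cspg4, a proteoglycan of pericytes and glial precursors, was the 1 of 10 called, with 496 ± 109.5 and 1161 ± 57.7, a difference of 1.25 ± 0.26 (limma adjusted p = 0.0178), lost without replicate 1 or 3 at 24 h or replicate 2 or 3 at 36 h (up to 0.12). Endothelial markers overlapped, with 5047 to 7383 and 6080 to 8142 and 0 of 13 called with limma, edgeR or DESeq2 and 0 at an unadjusted p below 0.05. The part of these cells in the rise of the matrix genes was not tested.

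**Figure D4:**
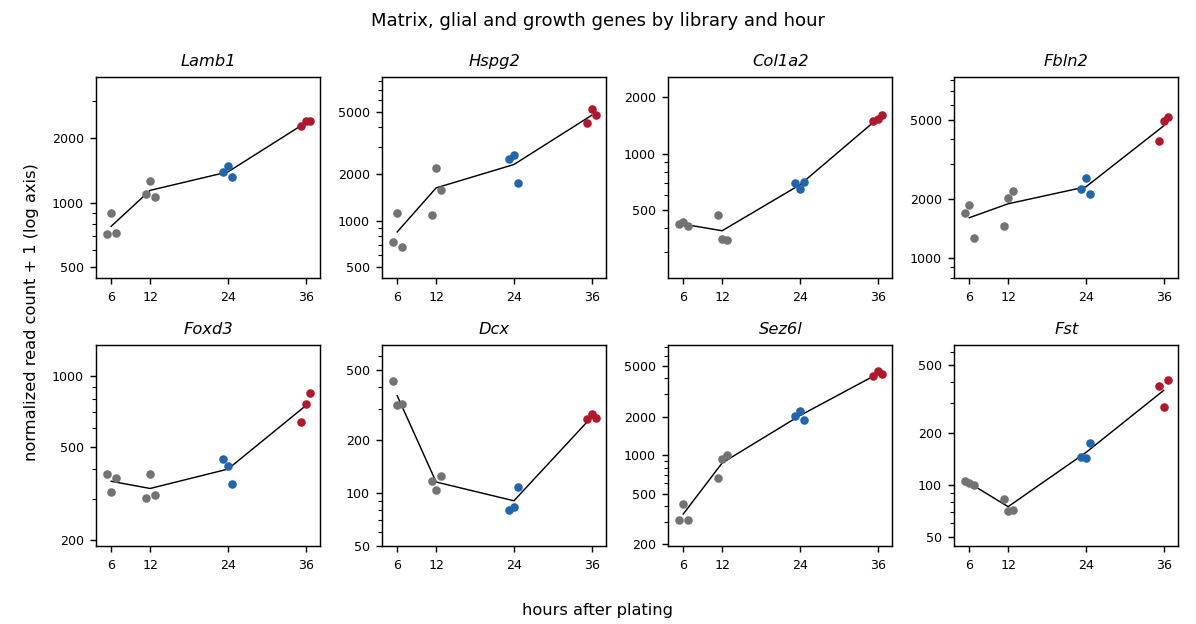
Normalized read counts plus 1 of 8 matrix, glial and growth genes on a log axis against hours after plating, with 1 point per library, the line through group means, 24 h in blue and 36 h in red. All 36 h libraries lie above the 24 h libraries in each panel, as in every gene called as rising. Dcx returns from 89.4 at 24 h to 269.7 at 36 h after 356 at 6 h.

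Glial genes changed in both directions. The 12 satellite glia markers summed to 35715 to 43029 at 24 h and 44373 to 45793 at 36 h, without overlap, with 3 rises and 1 fall. Fbln2, a matrix protein, had 2241, 2555 and 2114 at 24 h and 3922, 4974 and 5168 at 36 h, a difference of 1.02 ± 0.17 (limma adjusted p = 0.00612). Its relative Fbln5 had 698, 722 and 694 at 24 h and 1312, 1134 and 1239 at 36 h, a difference of 0.80 ± 0.11 (limma adjusted p = 0.0021). Both held in all 6 fits without 1 library, and both encode matrix proteins, so they also belong with the matrix genes above. The adhesion molecule Cadm4 differed by 0.81 ± 0.15 (limma adjusted p = 0.00938), lost without replicate 3 at 24 h (adjusted p = 0.0628). Ednrb, the endothelin B receptor, fell, with 5185, 4516 and 4475 at 24 h and 3319, 2517 and 2374 at 36 h, a difference of -0.80 ± 0.17 (limma adjusted p = 0.0208) that only the fit without replicate 1 at 36 h kept (up to 0.0954). The more defining markers did not pass: Fabp7 was at 76.7 ± 6.32 and 60.8 ± 15.8 and Kcnj10 at 789 ± 65.4 and 977 ± 105.

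The summed levels of Schwann cell markers overlapped between the times. Myelinating Schwann cell markers summed to 17847 to 22881 at 24 h and 21506 to 25483 at 36 h, with 1 of 12 called, the myelin enzyme Cnp, at 0.73 ± 0.16 (limma adjusted p = 0.0235), lost in 5 fits, all but that without replicate 1 at 24 h (up to 0.153). Repair and immature Schwann cell markers summed to 28116 to 30372 and 28959 to 30852, with 1 rise and 1 fall among 12. Of these 12, 5 were higher and 1 was lower at 36 h without overlap, against 14% and 15.5% of all tested genes. The neural crest transcription factor Foxd3 had 443, 413 and 345 at 24 h and 634, 761 and 844 at 36 h, a difference of 0.89 ± 0.15 (limma adjusted p = 0.00653), lost without replicate 3 at 24 h (adjusted p = 0.0565). The calcium-binding protein S100b differed by -0.57 ± 0.14 (limma adjusted p = 0.0438), called in 1 of 6 fits, that without replicate 1 at 24 h (up to 0.197). Sox10, the transcription factor of these glia, was at 2323 ± 483 and 3364 ± 208 and was not called (limma adjusted p = 0.17).

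Other cell types were scarce. Macrophage markers summed to 714 to 935 at 24 h and 1006 to 1335 at 36 h, without overlap, and their median difference was 0.301. Of 13 tested, 3 were higher and 1 was lower at 36 h without overlap, against 14% and 15.5% of all tested genes. Lyz2, the lysozyme of myeloid cells, was the only call, at 0.84 ± 0.21 (limma adjusted p = 0.0456). It was lost in 5 fits without 1 library, all but that without replicate 1 at 24 h (up to 0.183). Csf1r and Ptprc were at 107 ± 15.6 and 69.3 ± 12.1 at 36 h. Lymphocyte, neutrophil and red cell markers summed to at most 50.5, 80.2 and 967 at 24 h and 52.6, 66.8 and 630 at 36 h. The lymphocyte marker Nkg7 and the muscle marker Tnnt3 were at 0 in all 6 libraries. Skeletal muscle markers summed to 423 to 635 and 200 to 350, nearly all of it the giant muscle protein gene Ttn, which fell by 1.11 on the log2 scale (SE 0.21, limma adjusted p = 0.0135), lost without replicate 2 or 3 at 24 h or replicate 3 at 36 h (up to 0.0748).

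Genes of neurite growth rose in part, and which cells carried their RNA was not tested. Of 50 genes of the growth cone and neurite cytoskeleton, 4 rose and 0 fell (8% called, against 2.65% of all tested genes). Dcx, a microtubule protein of migrating and extending neurons, had 78.7, 82.6 and 107 at 24 h and 261, 281 and 268 at 36 h, a difference of 1.59 ± 0.18 (limma adjusted p = 3.13e-04) that held in all 6 fits without 1 library. The tubulins Tubb2b and Tubb5, genes with close relatives whose reads may be shared, had 7934 ± 543 and 12913 ± 698 at 24 h and 11937 ± 1180.5 and 18982 ± 904 at 36 h. Their differences were 0.59 ± 0.14 and 0.56 ± 0.14 (limma adjusted p = 0.0332 and 0.0412), called in 0 of the 6 fits (up to 0.177 and 0.196). Fscn1, an actin bundler of filopodia, differed by 0.75 ± 0.16 (limma adjusted p = 0.0253) and kept its call only without replicate 1 at 36 h (up to 0.162). The list had 1 or 2 rises in each of the 6 fits.

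Among 42 genes associated with axon regeneration, 4 rose and 1 fell (11.9% called, against 2.65% of all tested genes). Sez6l, a neuronal membrane protein gene, had 2024, 2209.9 and 1891 at 24 h and 4150.3, 4536 and 4303 at 36 h, a difference of 1.09 ± 0.16 (limma adjusted p = 0.00286). It stood at 290.4 ± 84.4 in sham ganglia and at 344 ± 61.2 at 6 h. Fst, the activin antagonist follistatin, had 145, 142 and 174 at 24 h and 375, 285 and 408 at 36 h, a difference of 1.20 ± 0.18 (limma adjusted p = 0.00294). Both were well separated and held in all 6 fits. The others were Itga7 (above) and Tgm1, a transglutaminase, at 24.3 ± 4.24 and 77.5 ± 28.1 with a difference of 1.59 ± 0.40 (limma adjusted p = 0.0479, up to 0.169 with 0 of 6 fits calling it). The fall was that of Nptx1, a secreted synaptic protein, at -0.89 ± 0.21 (limma adjusted p = 0.0349), kept only without replicate 1 at 24 h (up to 0.152). Without any 1 of the 6 libraries 2 members rose.

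Axon guidance genes gave 5 rises and 1 fall (Plxnc1) among 71 (8.45% called, against 2.65% of all tested genes), with a median difference of 0.30. The secreted semaphorin Sema3b had 1139, 1081 and 882 at 24 h and 1829, 1858 and 1987 at 36 h, a difference of 0.88 ± 0.14 (limma adjusted p = 0.0049). Plxna4, a receptor for such semaphorins, had 4201, 4556 and 4529 at 24 h and 7807, 7596 and 7939.6 at 36 h, a difference of 0.81 ± 0.12 (limma adjusted p = 0.00294). Both held in all 6 fits. Sema3g, Plxnb3 and Plxna3 differed by 0.97 ± 0.19, 1.04 ± 0.18 and 0.82 ± 0.20 (limma adjusted p = 0.0151, 0.00751 and 0.0441). Plxnb3 was lost without replicate 3 at 24 h (0.0628), Sema3g without that library or replicate 1 or 2 at 36 h (up to 0.10), and Plxna3 in all 6 fits (up to 0.229). The list had 4, 4 or 2 rises without replicate 1, 2 or 3 at 24 h and 3, 3 or 4 without replicate 1, 2 or 3 at 36 h.

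Metabolic and stress genes changed in small number. Of 38 glycolysis and hypoxia genes, 5 fell and 0 rose, although the median difference was -0.07. Ero1l, an oxidase of the endoplasmic reticulum induced by hypoxia, had 3429, 3224 and 4031 at 24 h and 1948, 1706 and 1963 at 36 h, a difference of -0.92 ± 0.16 (limma adjusted p = 0.00726), lost without replicate 3 at 24 h (0.0565). Bnip3, a mitochondrial protein, differed by -0.68 ± 0.16 and hexokinase 2 (Hk2) by -0.66 ± 0.14 (limma adjusted p = 0.0316 and 0.0235). The others were the lactate transporter Slc16a1 and the glucose transporter Slc2a3, with -0.59 ± 0.12 and -0.46 ± 0.12 (limma adjusted p = 0.021 and 0.0464). Without replicate 1, 2 or 3 at 24 h 4, 1 or 0 of the list fell, and without replicate 1, 2 or 3 at 36 h 1, 1 or 3.

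Protein folding genes of the endoplasmic reticulum split. Of 46 genes of the unfolded protein and integrated stress responses, the disulfide isomerases Pdia4 and Pdia6 and the chaperone Calr rose, and the cochaperone Dnajb9 fell. Pdia4 had 999, 928 and 1011 at 24 h and 1440.2, 1389 and 1422 at 36 h, a difference of 0.53 ± 0.10 (limma adjusted p = 0.0141), lost without replicate 2 or 3 at 24 h (up to 0.0795). Calr, Pdia6 and Dnajb9 differed by 0.45 ± 0.11, 0.52 ± 0.13 and -0.84 ± 0.21 (limma adjusted p = 0.0341, 0.0469 and 0.0412). Calr was kept only without replicate 2 at 36 h and the last 2 in no fit without 1 library (up to 0.143, 0.171 and 0.229).

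Secreted factors and their receptors gave few calls. Of 46 genes of TGF-beta, BMP and activin signalling, the protease Bmp1, Fst and its relative Fstl3 rose and Fstl1 fell. Bmp1 and Fstl3 differed by 0.75 and 0.68 (limma adjusted p = 0.0424 and 0.0418). Both were called in 0 of the 6 fits without 1 library (up to 0.221 and 0.205). Fstl1, a secreted glycoprotein with 1 of the 5 highest read counts among called genes that fell, had 18881, 21306 and 22685 at 24 h and 15106, 14298 and 16297 at 36 h, a difference of -0.46 ± 0.11 (limma adjusted p = 0.0336), kept only without replicate 1 at 24 h (up to 0.188). Wnt2b and the Wnt receptor Fzd1 rose by 0.65 ± 0.15 and 0.62 ± 0.13 (limma adjusted p = 0.0292 and 0.0233), the 2 calls among 39 Notch and Wnt genes, the first kept in 1 and the second in 2 of the 6 fits (up to 0.135 and 0.156). Both were lost without replicate 1 or 3 at either time, and Wnt2b also without replicate 2 at 24 h. Of 47 cytokine, chemokine and receptor genes, 1 rose and 1 fell. Il1rn, the interleukin 1 antagonist, differed by -1.07 ± 0.23 (limma adjusted p = 0.0235), kept only without replicate 1 at 36 h (up to 0.0973).

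The remaining lists gave at most 1 call each. These single calls were Ifit1 among 45 interferon genes, at -0.87 ± 0.22, Sod3 among 35 oxidative stress genes, at 0.85 ± 0.21, and Trp53inp1 among 39 p53 and apoptosis genes, at -0.76 ± 0.18 (limma adjusted p = 0.0464, 0.0475 and 0.0371). Ifit1 and Sod3 were called in 0 of the 6 fits without 1 library (up to 0.25 and 0.248). Trp53inp1 was kept only without replicate 1 at 36 h (up to 0.156). With limma 0 genes were called among 33 cytosolic chaperones, 29 cholesterol, 26 fatty acid, 74 oxidative phosphorylation, 43 ribosome biogenesis, 53 lysosomal and 19 clock genes, and edgeR called 1 of all these, in the fatty acid list. At an unadjusted p below 0.05 they held 4, 4, 6, 4, 0, 10 and 4 genes, and DESeq2 called 1, 2, 3, 0, 0, 5 and 0. The 80 tested cytosolic ribosomal protein genes had 0 calls with limma and edgeR and 2 with DESeq2, both higher. Their median difference was 0.256, and 34 of the 80 had all 36 h libraries above all 24 h libraries (14% of all genes did), with 12 higher and 0 lower at an unadjusted p below 0.05. Many ribosomal protein genes have near-identical copies, so their counts are uncertain.

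**Figure D5:**
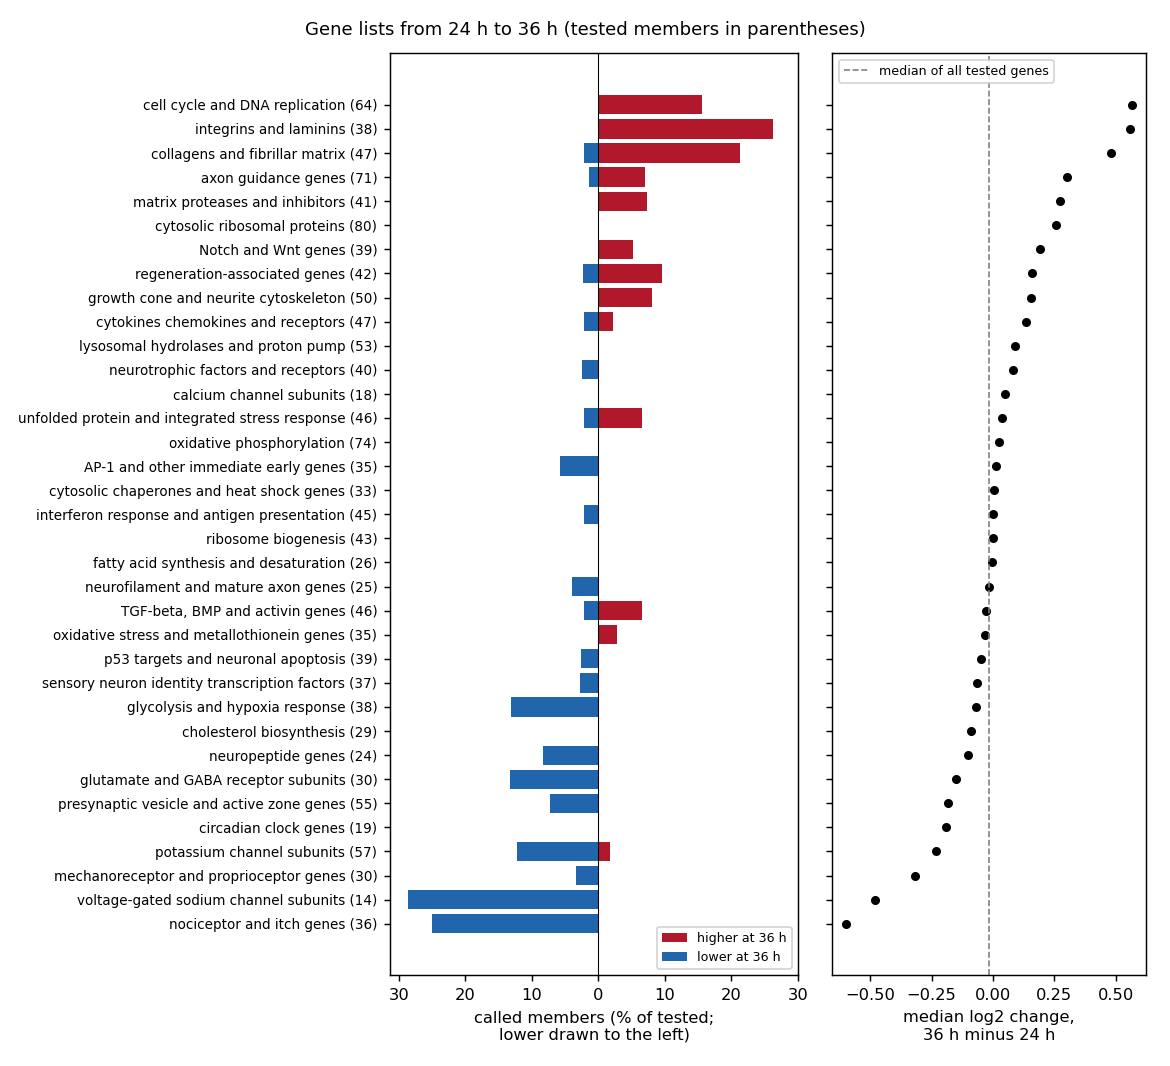
Left, the share of tested members of 35 gene lists that rose (red, to the right) or fell (blue, to the left) from 24 h to 36 h, in percent. Right, the median log2 difference of each list, 36 h minus 24 h, with the median of all genes (-0.0149) as a dashed line: cell cycle genes are highest at 0.565 and nociceptor genes lowest at -0.597.

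The step from 12 h to 24 h, of equal length, shares the 24 h libraries with this one, so the 2 are given side by side. It had 1734 called genes (11.6%), 723 higher (4.82%) and 1011 lower (6.74%). Of the 36 nociceptor genes, 23 fell and 1 rose from 12 h to 24 h, against 9 and 0 from 24 h to 36 h, with medians of -1.0 and -0.597. For potassium channels there were 26 falls then and 7 later, and for presynaptic genes 20 and 4. Cell cycle genes had 3 rises and 4 falls with a median of 0.115 from 12 h to 24 h, against 10 and 0 and 0.565 later. The collagen list had 10 rises in both steps, with medians of 0.0685 and 0.481. Integrin and laminin genes had 7 rises and 1 fall with a median of 0.372, against 10 and 0 and 0.56 later. Sodium channel genes had 8 falls and 1 rise with a median of -0.785, against 4 and 0 and -0.481 later. The difference between the steps was tested gene by gene, and 27 genes passed (0.18%), 15 with a higher and 12 with a lower value in the later step. Of the lists compared here, this test called 2 nociceptor genes and 1 collagen gene. It called 0 genes in the cell cycle, potassium channel, presynaptic, sodium channel and integrin and laminin lists.

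Dcx was 1 of these 27. It differed by -0.36 ± 0.18 from 12 h to 24 h, which was not called, and rose afterwards, so that the steps differed by 1.96 ± 0.31 (limma adjusted p = 0.014). Of these 27, Pcdh8 and Lrfn5 had a call in each direction. They are adhesion molecules of neurons and synapses that fell from 12 h to 24 h and rose from 24 h to 36 h. Pcdh8 had 51.6, 59.3 and 58.3 at 24 h and 85.2, 112 and 132 at 36 h, after 143 ± 18.3 at 12 h, and the steps differed by 2.24 ± 0.34 (limma adjusted p = 0.0127). Its rise (limma adjusted p = 0.0221) was kept only without replicate 1 at 36 h (up to 0.0949). Lrfn5 had 229, 258 and 269 at 24 h and 538, 431 and 413 at 36 h, after 352 ± 40.7 at 12 h, and the steps differed by 1.34 ± 0.24 (limma adjusted p = 0.0361). Its rise held in all 6 fits. For Rrm2 the difference between the steps was 2.36 ± 0.59 and did not pass (limma adjusted p = 0.189), nor did that of Uhrf1, 2.59 ± 0.54 (limma adjusted p = 0.0919).

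The first step, from 6 h to 12 h, shares no library with this one but lasted 6 h less, and it had 1588 called genes (10.6%), 880 higher (5.86%) and 708 lower (4.72%). Genes that rose in both numbered 63, which was 38% of the late rises and 7.16% of the early ones. Genes that fell in both numbered 73, or 31.5% of the late and 10.3% of the early falls. Of the late rises 7 had fallen early, and of the late falls 15 had risen early. In the early step the cell cycle list had 7 rises and 0 falls (median 0.321). The integrin and laminin list had 9 and 0 (median 0.275). The nociceptor list had 13 falls and 0 rises (median -0.608), and the sodium channel list 3 and 0 (median -0.353). Mrgprd, Lpar3 and Scn11a fell in the early step too, by 1.01, 1.23 and 0.44 on the log2 scale. Rrm2 was not called early, with -0.13 ± 0.34, while Uhrf1 and Dtl had risen by 2.50 and 1.90. A test of the difference between the late and early steps called 482 genes (3.21%).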

How the data were processed

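The authors deposited 1 table with 20782 genes and a signal value per gene and library. Per the submitters' processing notes, reads were aligned with TopHat to mm10. Not given in the sources used here are versions, annotation, counting tool, strand setting, filters and how normalization factors were made. The TruSeq V2 libraries started from 10 ng of total RNA, per the labels' protocols. In each column the deposited signal values were multiples of 1 step, the worth of 1 read: of 172160 values of up to 1000 reads in the 12 culture libraries, 172160 (100%) were whole reads within a tolerance of 0.1. The values are thus read counts divided by 1 factor per library. The written design covered raw counts and normalized values, and the table was treated as normalized, with count tests on the recovered reads as alternatives. All columns were mapped through the sample descriptions, with 0 left over.

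Values were tested as log2(value + 1) with limma 3.58.1 in R 4.3.3, eBayes with trend and robust, on the 12 culture libraries without covariates. Testing required a value of at least 10 in 3 or more libraries, which kept 15006 genes, and Benjamini-Hochberg adjustment ran over all of them with a threshold of 0.05. Genes were assigned to 35 lists and 12 lists of cell type markers, described by counts and medians only. The comparison, the lists and the rule for named genes were chosen with earlier results of these data known. The rule took the Cacna2d genes, 15 rises and 15 falls (those largest in size among called genes whose libraries did not overlap and whose higher mean reached 100), up to 3 rises and 3 falls per list, up to 6 genes per direction called in opposite directions in the late and middle steps, and the 5 called genes with the highest mean in each direction. Other genes named, among them the called members of a list beyond its first 3, were chosen after their values were seen. Not every gene under the rule is described, and some genes that lists count are not reported here by name.

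Alternatives were other pseudocounts, filters, scalings, sets of libraries and weights, edgeR 4.0.16, DESeq2 1.42.0 and leaving out each library. Tests were run first on simulated data. Promoter sequences were taken from RefSeq (GRCm38.p6). Depth ran from 4.57 to 25.7 M reads in the 6 libraries, and values on few reads carry a large counting error.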

Additional observations from a re-analysis of the deposited data

Results flagged for a closer look

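In 8 genes described here, the log2 difference from 24 h to 36 h differed from that of the step from 12 h to 24 h by a test of the difference itself (limma over 15006 genes, 27 passing, 0.18%). The 2 steps share the 24 h libraries, so a 24 h value that is off moves them in opposite directions. Leaving out a library left 5 to 21 such genes, against 27 with all.

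In 3 of them a call as falling from 12 h to 24 h was followed by no call. Grik1, a kainate receptor subunit, fell by 2.03 from 12 h to 24 h and then stood at 431 ± 14.8 and 334 ± 38.4, with each 36 h library below each 24 h library, and with a difference between the steps of 1.65 (adjusted p = 0.00271). Prkcq, a protein kinase C, had fallen by 2.34 and then differed by -0.29, so that the steps differed by 2.06 (adjusted p = 0.00469). Rtn4rl1, a relative of the Nogo receptor, had fallen by 1.62 and then stood at 157 ± 22.8 and 228 ± 39.3, with a difference of 2.15 between the steps (adjusted p = 0.018). The other 4 in this direction rose from 24 h to 36 h. The steps differed by 2.24 in Pcdh8 and 1.34 in Lrfn5, which had been called as falling, and by 1.96 in Dcx and 1.06 in Tnc (adjusted p = 0.0383 for Tnc), which had not.

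Slc2a1, the glucose transporter GLUT1, went the other way: it rose by 0.85 and then differed by -0.39, which was not called (adjusted p = 0.11), with a difference between the steps of -1.24 (adjusted p = 0.0282).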

How the results depend on the processing

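No paired analysis was possible because the labels give no replicate numbers that groups share. The 398 calls of the step from 24 h to 36 h stayed within 1.5 times under other pseudocounts, a filter at 50, TMM or DESeq2 scaling and edgeR (392 to 561), but became 249 without a filter, 170 with eBayes without trend and robust, 823 with all 24 libraries, 1113 with only the 6 libraries, 1335 with library weights and 1079 with DESeq2. With edgeR 50.6% of calls were higher, against 41.7%. Leaving out 1 library gave 67 to 268, and for the steps 12 h to 24 h, 6 h to 12 h, and the differences of the late step from these, 731 to 1848, 1340 to 1673, 5 to 21 and 268 to 357. With library weights these 4 counts (1734, 1588, 27 and 482) became 3905, 2817, 370 and 1089, and with DESeq2 the last 2 became 149 and 893. Called genes in lists numbered 98, against 63 without a filter, 41 with plain eBayes, 214 with only the 6 libraries, 246 with weights, 211 with DESeq2, and 28 to 62 without 1 library. Chosen after seeing the data, leaving out replicate 1 at 12 h gave 1040 calls (201 in lists), and leaving out both replicate 1 at 24 h and replicate 2 at 36 h gave 78 (24 in lists). Of 142 called genes examined one by one, 0 changed sign over 2839 values, 42 kept their call in all 6 fits without 1 library and 29 in none. Signs turned for uncalled genes near 0: Cacna2d2 0.005064 with weights and 0.01747 without replicate 2 at 36 h (without 1 library -0.3347 to 0.01747). Cacna2d3 was -0.05348 with weights, -0.01256 with edgeR, -0.0108 with DESeq2, -0.1457 without replicate 1 at 24 h, -0.1152 without replicate 2 at 36 h (without 1 library -0.1457 to 0.183) and -0.3017 without both. The cause of these shifts was not tested. Depth limits low genes: Top2a and Oprk1 rested on as few as 2 and 1 reads.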

Other observations

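The genes in this section were chosen after their values were seen. Of genes outside the marker lists, 6 known from glia or adhesion rose. Kirrel, an adhesion molecule, had 1559, 1452 and 1461 at 24 h and 2855, 2901 and 2828 at 36 h, a difference of 0.94 ± 0.10 (limma adjusted p = 3.13e-04). Lgi4, a secreted factor needed for Schwann cell myelination, had 1702, 1770.0 and 1488 at 24 h and 3056, 2866 and 3262 at 36 h, a difference of 0.89 ± 0.13 (limma adjusted p = 0.00294). Both calls held in all 6 fits without 1 library. Dhh, the desert hedgehog ligand of Schwann cells, and Entpd2, a nucleotidase of glia, differed by 0.77 ± 0.14 and 1.10 ± 0.20 (limma adjusted p = 0.00938 and 0.0091), and both lost their calls without replicate 3 at 24 h (adjusted p = 0.0735 and 0.0714). Gpr37l1 and Megf10, a glial receptor and an engulfment receptor, differed by 0.79 ± 0.18 and 0.60 ± 0.15 (limma adjusted p = 0.0312 and 0.0477). The first was kept only without replicate 2 at 36 h (up to 0.182) and the second in no fit without 1 library (up to 0.197).

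Among neuronal genes, Acpp, an ectonucleotidase of nonpeptidergic nociceptors, had 2383, 2154 and 2443 at 24 h and 1220.3, 975 and 1187 at 36 h, a difference of -1.05 ± 0.14 (limma adjusted p = 0.00127) in all 6 fits. Oprk1, the kappa opioid receptor, had 14.8, 11.4 and 13.8 at 24 h and 3.23, 3.10 and 0.923 at 36 h, on as few as 1 read. Npy2r, a receptor for neuropeptide Y, went the other way, from 198 ± 40.2 to 381 ± 53.6, a difference of 0.95 ± 0.22 (limma adjusted p = 0.0327) called in 0 of 6 fits (up to 0.146). Cd274, which encodes the immune checkpoint ligand PD-L1, had 2189, 1859 and 2761 at 24 h and 982, 868 and 1403 at 36 h, against 240.1 ± 82.7 in sham ganglia, a difference of -1.08 ± 0.22 (limma adjusted p = 0.0165). It lost its call without replicate 1 or 3 at 24 h or replicate 1 or 2 at 36 h (up to 0.112).

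Beside the collagens, Serpinh1, the collagen chaperone HSP47, and P4hb, a subunit of the enzyme that hydroxylates collagen, rose by 0.64 ± 0.13 and 0.50 ± 0.12 (limma adjusted p = 0.0166 and 0.0324). Serpinh1 lost its call without replicate 3 at 24 h or replicate 2 at 36 h (up to 0.119), and P4hb in all 6 fits (up to 0.196). Beside the replication genes, the DNA repair gene Brca1 rose by 1.07 ± 0.25 (limma adjusted p = 0.0347), called only without replicate 3 at 24 h (up to 0.13).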
